A study of Mus musculus with 6 samples.

Results

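Transthyretin (Ttr) and 9 further genes of choroid plexus epithelium were followed across the cell classes of 6 droplet single-cell RNA libraries of the mouse hippocampus. The 10 genes (Ttr, Htr2c, Enpp2, Otx2, Otx2os1, Kl, Folr1, Clic6, Kcnj13 and Prlr) were found by their symbols among the 31253 genes counted in every library. They were chosen by the measured fall of Ttr in every class after sevoflurane, so the differences of these genes between the groups are given as a description, with no p-value. The working name of the set calls their RNA free RNA, meaning transcripts that enter a droplet from the fluid around the captured cell. In each Control library Ttr stood at a similar level in the 7 larger classes outside the choroid plexus, while in Sevoflurane libraries it was near 0 in all of them and its order among classes rests on few UMIs. The other 9 genes were higher in some classes than in others. How much of the RNA of any of the 10 genes is free RNA was not tested.

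The Sevoflurane group held 3 libraries from old mice that had breathed 2% sevoflurane, an inhaled anaesthetic, for 6 h. The Control group held 3 libraries from old mice kept in air. Hippocampi were taken 24 h after the exposure, digested with collagenase, filtered, frozen as a suspension and thawed, and libraries were made by the 10x Genomics droplet method (3′ kit, version v3.1). Strain, sex and the age in months are not given in the sources. The labels number the libraries 1 to 3 within a group and mention 6 mice without tying each library to an animal, so every p-value refers to variation between libraries, which may be technical in part.

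The choroid plexus is a vascular fold of the ventricle wall whose epithelium secretes cerebrospinal fluid and separates it from the blood. Its cells make transthyretin, a secreted carrier of thyroxine and of the retinol-binding protein, at very high levels. In the brain, Ttr is a standard marker of this epithelium, and the hippocampus lies next to the ventricle that contains it. A unique molecular identifier (UMI) marks each captured transcript, so levels are given as UMIs per cell, not scaled by transcript length.

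Library depth ran from 54426522 to 70741809 UMIs, and 46876 cells were kept, with median depths of 5342 to 6242 UMIs per cell in a library. The median share of mitochondrial UMIs was 0.143% to 0.397%. Any pair of libraries shared 13 to 29 cell barcodes, at most 0.333% of the smaller one. Cells were put into classes by markers that include none of the 10 genes, and each class name stands for cells like that type (neuron-like, microglia-like). Of 38 clusters, 35 were named, in 11 classes, and 7 classes other than choroid plexus had at least 20 cells in every library. One library, Sevoflurane 1, differed from the rest in sex-linked genes: Uty, on the Y chromosome, was at 0.000445 UMIs per cell there, against 0.898 and 1.12 in Sevoflurane 2 and 3 and 0.958 to 0.994 in the Control libraries. Values that change by over 1.5 times without that library are given with and without it.

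The genes are located here by GENCODE M21 on the GRCm38 build, since the sources used here do not name the build of the deposited counts. Ttr spans bases 20665280 to 20674321 of chromosome 18 on the plus strand. Htr2c, a serotonin receptor gene, spans bases 146962513 to 147197277 of the X chromosome on the plus strand. Enpp2, the gene of autotaxin, a secreted enzyme that makes lysophosphatidic acid, spans bases 54838901 to 54952892 of chromosome 15 on the minus strand. Prlr, the prolactin receptor gene, lies on the same chromosome at bases 10177238 to 10349180 on the plus strand. Kl, the gene of klotho, a coreceptor for a fibroblast growth factor hormone, spans bases 150952607 to 150993817 of chromosome 5. Folr1, the gene of folate receptor alpha, spans bases 101858331 to 101870788 of chromosome 7 on the minus strand. Clic6, a chloride intracellular channel family gene, spans bases 92485736 to 92541243 of chromosome 16. Kcnj13, an inward rectifier potassium channel gene, spans bases 87386363 to 87394729 of chromosome 1 on the minus strand.

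Otx2, a homeodomain transcription factor gene needed for the choroid plexus to form, spans bases 48657677 to 48673819 of chromosome 14 on the minus strand. Otx2os1, a long noncoding RNA gene on the opposite strand, spans bases 48668708 to 48870683 and overlaps it over 5112 bases. The sources used here do not say whether the counting used strand, so reads of Otx2 and Otx2os1 may have been exchanged. Because OTX2 is the transcription factor of the set, the promoters of the genes were searched for TAATCC, the letters recognised by the OTX family, on both strands. The chromosome of Ttr was left out of this search, so Ttr itself was not searched. With this exclusion, RefSeq on GRCm38.p6 gave 10 promoters for 5 of the 10 genes. Each promoter ran from 250 bases before to 50 bases after a start. The letters stood in 1 of these 10 promoters, against 7.06% of the 32851 promoters in the table, a share taken without that exclusion. That promoter belongs to Otx2 itself, at chr14:48665060-48665359 on the minus strand. It is shown 5′ to 3′ with the match, read on its other strand, in capitals, 211 bases before the start. A match of letters is a description of the sequence and not a binding site.

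Otx2 promoter: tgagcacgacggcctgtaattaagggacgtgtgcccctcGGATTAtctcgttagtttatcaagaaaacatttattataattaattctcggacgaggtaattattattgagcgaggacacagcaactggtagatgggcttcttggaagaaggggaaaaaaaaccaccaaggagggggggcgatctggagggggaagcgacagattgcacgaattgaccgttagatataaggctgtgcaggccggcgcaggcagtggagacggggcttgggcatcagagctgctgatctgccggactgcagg

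Choroid plexus cells were almost all in Control libraries. The class held 0, 1 and 4 cells of Sevoflurane 1, 2 and 3, and 65, 19 and 100 cells of Control 1, 2 and 3. These counts were 0%, 0.0125% and 0.0492% of the kept cells in Sevoflurane libraries and 0.978%, 0.235% and 1.43% in Control libraries. With 0 of 8996 cells in Sevoflurane 1, a share as high as 0.0333% cannot be told from 0 by counting error alone. The single cell of Sevoflurane 2 carried 11 Ttr, 3 Htr2c, 3 Enpp2 and 3 Otx2os1 UMIs. The 4 cells of Sevoflurane 3 carried 0 Ttr and 0 Htr2c UMIs, which goes against their class name, so no level in choroid plexus cells is given for Sevoflurane.

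In the choroid plexus cells of the Control libraries all 10 genes were detected. Per cell, Ttr stood at 18.97, 22.6 and 27.7 UMIs in Control 1, 2 and 3, with a median of 17, 17 and 20 and a highest cell of 78, 82 and 308. Htr2c stood at 64.7, 59.3 and 67.5 UMIs per cell. Enpp2 stood at 39.8, 41.2 and 37.5 UMIs per cell. The 3 libraries lay close together for both genes. Otx2os1 followed with 14.2 ± 3.81 UMIs per cell and Otx2 with 1.65 ± 0.383 (mean ± SD, n = 3 libraries). The receptor genes Prlr and Folr1 stood at 4.15 ± 1.69 and 0.793 ± 0.0493, the klotho gene at 2.38 ± 0.530, and the channel genes Clic6 and Kcnj13 at 3.34 ± 0.288 and 1.13 ± 0.274. The 11 marker genes that named the class summed to 9.0 to 9.95 UMIs per cell there.

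Most Ttr UMIs of a Control library were outside choroid plexus cells. These cells held 15.2%, 9.75% and 12.4% of the Ttr UMIs of kept cells in Control 1, 2 and 3. Pooled over the Control libraries the share was 12.7% for Ttr. It was 92.4% for Otx2os1, 74.5% for Otx2 and 71.3% for Clic6. In Control 2, which had the fewest choroid plexus cells, it was lower, at 72.2% for Otx2os1, 45.1% for Otx2 and 44.4% for Clic6. Htr2c with 50.2%, Folr1 with 41.9%, Prlr with 30.3%, Enpp2 with 29.97%, Kl with 21.6% and Kcnj13 with 15.5% lay between in the pool. The order differed by library: Kcnj13, at 15.1%, lay just below Ttr in Control 1, and Kl, Prlr and Kcnj13, at 5.26%, 5.44% and 5.90%, lay below it in Control 2.

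Outside choroid plexus cells, a cell carried 0.0135, 0.0163 and 0.0147 Ttr UMIs in Sevoflurane 1, 2 and 3, against 1.05, 0.491 and 2.83 in Control 1, 2 and 3. The groups did not overlap, and the means were 0.0148 ± 0.00145 in Sevoflurane and 1.46 ± 1.22 in Control (SD, n = 3 each). The 3 Sevoflurane libraries differed far less from each other than the 3 Control libraries, of which Control 2, with the fewest choroid plexus cells, was the lowest and Control 3, with the most, the highest. In total the cells outside the choroid plexus class held 121, 131 and 119 Ttr UMIs in Sevoflurane libraries, against 6883, 3969 and 19527 in Control libraries.

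Within each Control library, Ttr was similar in the 7 larger classes, and in Sevoflurane libraries it was low in all of them. Neurons carried 0.0101, 0.0129 and 0.0138 Ttr UMIs per cell in Sevoflurane libraries, against 1.03, 0.476 and 2.77 in Control libraries. Oligodendrocytes, the myelinating glia, carried 0.0151, 0.0148 and 0.0194 in Sevoflurane libraries, against 1.00, 0.477 and 2.75 in Control libraries. Microglia, the resident macrophages of the brain, carried 0.0178, 0.00357 and 0.00379 in Sevoflurane libraries, against 0.987, 0.483 and 2.76 in Control libraries. In each Control library these 3 unrelated classes lay within a few percent of each other, while the libraries differed several-fold.

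The smaller classes showed the same order of Control libraries. Astrocytes carried 0.0187, 0.0205 and 0.00930 Ttr UMIs per cell in Sevoflurane libraries, against 1.04, 0.477 and 2.72 in Control libraries. Endothelial cells of the vessel wall carried 0, 0.00862 and 0.0296 in Sevoflurane libraries, against 1.15, 0.429 and 2.81 in Control libraries. The 0 UMIs in 42 endothelial cells of Sevoflurane 1 have an exact Poisson upper bound of 0.0878 per cell. Ependymal cells, which line the ventricle beside the choroid plexus, carried 0.0674, 0.0135 and 0.0208 in Sevoflurane libraries, against 1.01, 0.488 and 2.64 in Control libraries. In each of these 3 classes Control 3 was the highest library and Control 2 the lowest Control library, still above every Sevoflurane library. Oligodendrocyte precursors carried 0.00418, 0.0183 and 0.0106 in Sevoflurane libraries, against 1.06, 0.672 and 2.88 in Control libraries. Fibroblasts, with 16 to 93 cells in a library, carried 0, 0.125 and 0.0465 in Sevoflurane libraries, against 0.972, 0.379 and 4.03 in Control libraries. Over the 7 larger classes, the highest class was 5.73-fold and 7.81-fold above the lowest in Sevoflurane 2 and 3, where the lowest class, microglia, held 1 Ttr UMI in each, and Sevoflurane 1 ran from 0 in endothelial to 0.0674 in ependymal cells. In Control 1, 2 and 3 the highest class exceeded the lowest 1.17-fold, 1.57-fold and 1.09-fold. Fibroblasts lay above the highest of these classes in Control 3 and below the lowest in Control 1 and 2. The median depth of the same classes in Control libraries differed 4.76-fold, 4.34-fold and 4.36-fold. When Ttr was scaled to 10000 UMIs of the class, the spread between classes in Control libraries was wider, at 5.18-fold, 4.83-fold and 5.07-fold.

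**Figure D1:**
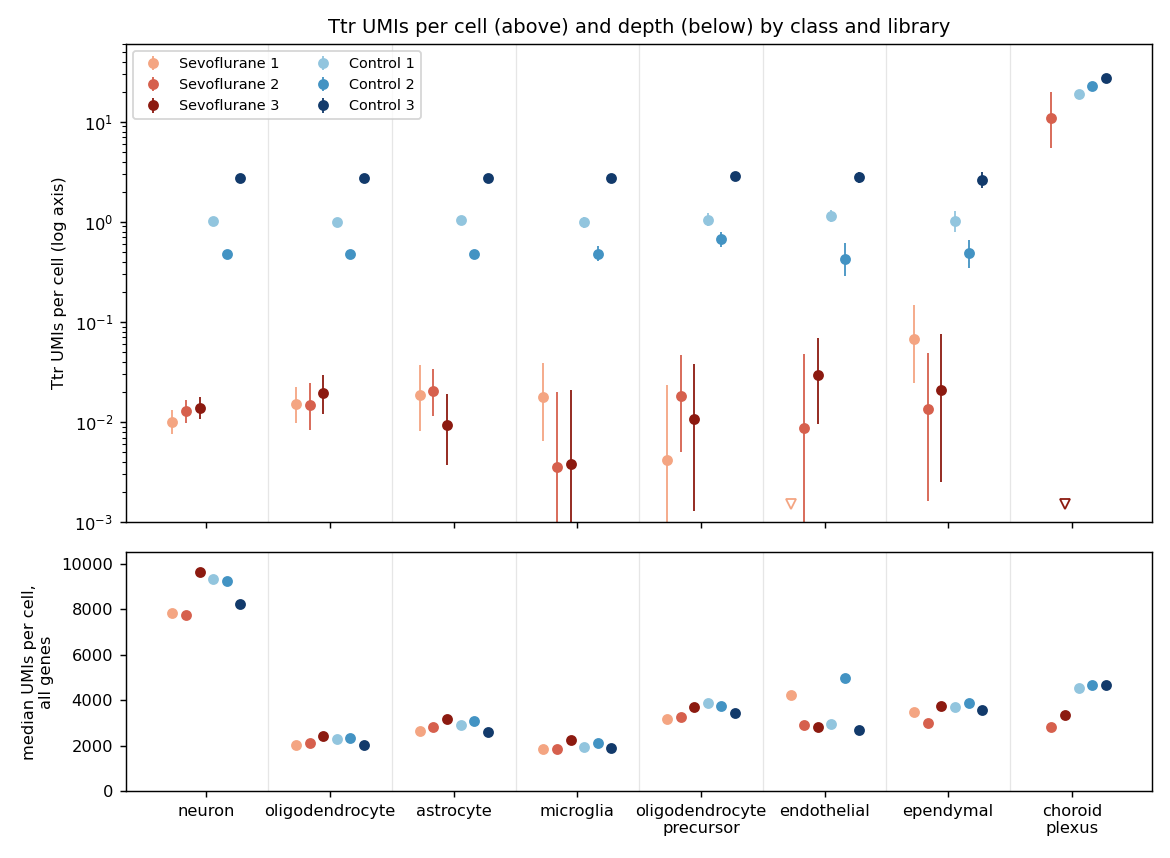
Ttr UMIs per cell (upper panel, log axis) and the median UMIs per cell over all genes (lower panel) by cell class, 1 point per library, Sevoflurane left of Control; triangles at the bottom mark 0 UMIs. Sevoflurane points for choroid plexus rest on 1 cell of Sevoflurane 2 and 4 cells of Sevoflurane 3. Over all cells outside the choroid plexus class Ttr stands at 0.0135 to 0.0163 UMIs per cell in Sevoflurane, where few UMIs scatter the points of the classes, and at 0.491 to 2.83 in Control, where the points of the 7 larger classes of a library lie within 1.57-fold of each other.

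The share of cells with at least 1 Ttr UMI was also compared between neurons and microglia. It was 0.853%, 1.22% and 1.29% of neurons in Sevoflurane libraries, against 61.3%, 35.7% and 91.4% in Control libraries. Among microglia, which are not known to make transthyretin, it was 1.78%, 0.357% and 0.379% in Sevoflurane libraries, against 55.7%, 38.8% and 91.4% in Control libraries. The shares of both classes were close in Control libraries, while in Sevoflurane libraries they rest on 6, 1 and 1 Ttr UMIs in microglia and had no common order. The median depth was 7748 to 9617 UMIs per neuron and 1850 to 2238 UMIs per microglial cell. After each cell had been thinned to 1000 UMIs, with 2 to 20 shallower cells of these classes left out of a library, the shares in Sevoflurane libraries were 0.0697%, 0.184% and 0.173% of neurons and 0.946%, 0% and 0.385% of microglia. In Control libraries they were 10.6%, 5.00% and 29.6% of neurons and 35.2%, 19.9% and 74.2% of microglia. Thinning thus placed neurons below microglia in Control libraries, so the order of these shares depends on the depth at which they are taken.

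Within neurons of Control libraries, Ttr differed less between shallow and deep cells than depth did. Neurons were ordered by depth and split into 4 equal parts. From the shallowest to the deepest part, median depth differed 3.44-fold, 3.21-fold and 3.49-fold in Sevoflurane libraries and 3.38-fold, 3.25-fold and 3.32-fold in Control libraries. Over the same range Ttr differed 2.29-fold, 1.67-fold and 1.17-fold in Sevoflurane libraries, which hold 58 to 64 Ttr UMIs in neurons, and 1.42-fold, 1.26-fold and 1.41-fold in Control libraries. In Control 3, for instance, the shallowest neurons carried 2.28 and the deepest 3.20 Ttr UMIs per cell. Htr2c differed 5.85-fold, 5.79-fold and 3.67-fold in Sevoflurane libraries and 4.26-fold, 7.59-fold and 3.66-fold in Control libraries. Enpp2 in neurons differed 3.66-fold, 4.12-fold and 4.63-fold in Sevoflurane libraries and 2.5-fold, 2.92-fold and 2.31-fold in Control libraries. Kl, Kcnj13 and Prlr, which are rarer, differed 2.69-fold to 6.31-fold over the 6 libraries. Of these 6 genes, Ttr differed least with the depth of the neuron in each library. Folr1, with 0.00143 to 0.0128 UMIs per neuron, differed 1.00-fold to 3.50-fold over the 6 libraries, less than Ttr in Sevoflurane 1 and 3 and in Control 3. Clic6 differed 1.64-fold to 7.26-fold, less than Ttr in Sevoflurane 1, at 2.25-fold. Otx2os1 differed 1.35-fold to 7.26-fold. The rare Otx2 was lower in the deepest than in the shallowest neurons of each Sevoflurane library and Control 2, and higher in Control 1 and 3.

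**Figure D2:**
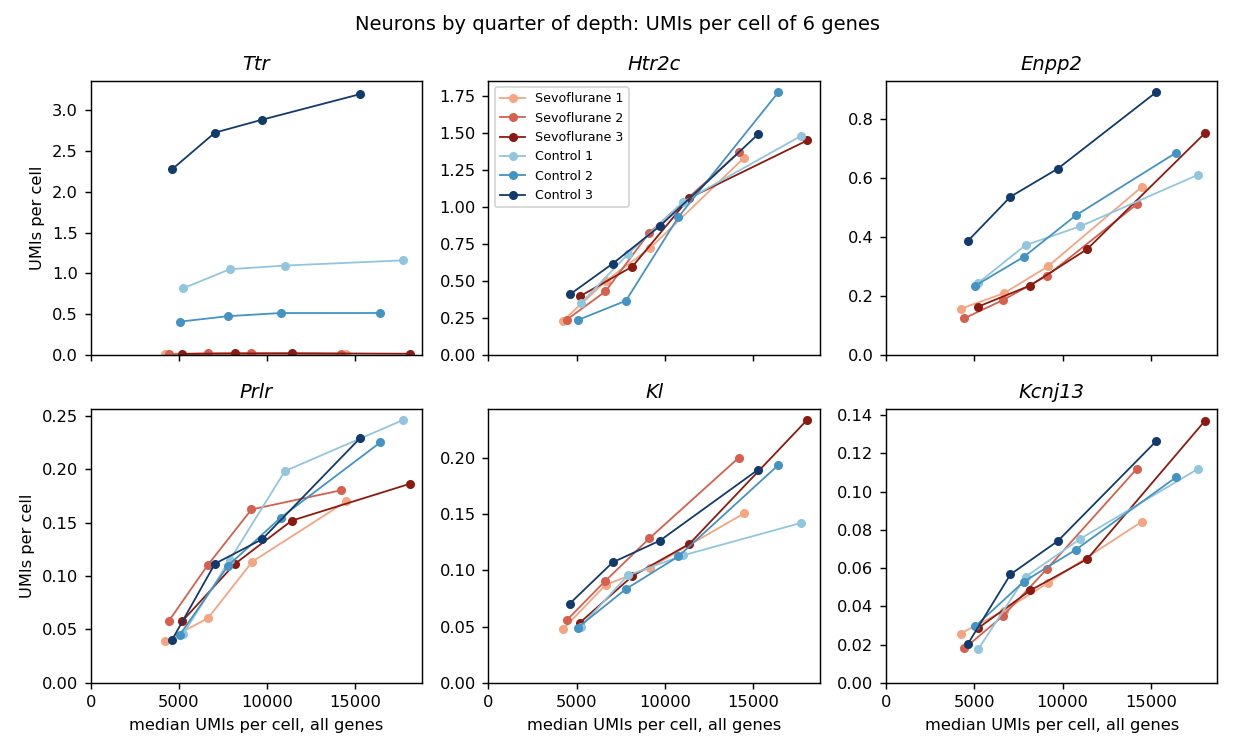
UMIs per cell in neurons against median depth, for the 4 equal parts of the neurons of each library ordered by depth, Sevoflurane and Control libraries in separate colours. Ttr in Control 3 is 2.28 UMIs per cell in the shallowest and 3.20 in the deepest part, whereas Htr2c differs 3.66-fold to 7.59-fold between these parts over the 6 libraries.

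The spread of Ttr between cells was compared across classes. The variance of the Ttr UMI count divided by its mean, which is 1 for counts that vary by sampling alone, was 1.25, 1.16 and 1.39 in neurons and 1.28, 0.943 and 1.75 in microglia of Control 1, 2 and 3. Over the 7 larger classes it lay between 0.864 and 1.75 in Control libraries. In Sevoflurane libraries it lay between 0.985 and 4.41, the highest in oligodendrocytes of Sevoflurane 3, where 1 cell held 7 Ttr UMIs. In choroid plexus cells of Control 1, 2 and 3 it was 8.03, 18.4 and 41.2. For Htr2c in neurons, a receptor made by some neuron types and not others, it was 8.35 to 13 over the 6 libraries.

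A small number of barcodes outside the choroid plexus class carried many Ttr UMIs. Among kept cells, no Sevoflurane cell had at least 20 Ttr UMIs, against 28, 9 and 54 choroid plexus cells and 1, 1 and 8 other cells in Control 1, 2 and 3. The highest other cell of Control 1 had 73 Ttr, 2 Htr2c and 38 Enpp2 UMIs at a depth of 1436. That of Control 2 had 73 Ttr, 0 Htr2c and 31 Enpp2 UMIs at a depth of 2404. That of Control 3 had 128 Ttr, 4 Htr2c and 106 Enpp2 UMIs at a depth of 225519. The 8 other cells of Control 3 with at least 20 Ttr UMIs had a median depth of 3823. Barcodes removed as likely doublets, meaning droplets with more than 1 cell, carried more Ttr than kept cells outside the choroid plexus class in each library. They carried 0.0512, 0.0287 and 0.0689 Ttr UMIs per barcode in Sevoflurane libraries, against 1.43, 0.677 and 15.5 in Control libraries. In Control 3, 21 of the 443 removed barcodes held 5504 Ttr UMIs, and the removed barcodes together held 23.5% of the Ttr UMIs of that library. The top barcode had 2812 Ttr UMIs among 9589 UMIs, with 28 Htr2c and 135 Enpp2 UMIs. In Sevoflurane 1, 2 and 3 the removed barcodes held 24.4%, 10.7% and 26.1% of the Ttr UMIs, and in Control 1 and 2 they held 6.55% and 8.53%. The shares of Ttr in choroid plexus cells given above leave these barcodes out.

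The ratios of the other genes to Ttr were lower in microglia than in choroid plexus cells. In choroid plexus cells of Control 1, 2 and 3 there were 3.41, 2.63 and 2.44 Htr2c UMIs per Ttr UMI. In microglia of the same libraries there were 0.0678, 0.0916 and 0.0226, with exact 95% intervals for counting error of 0.0381 to 0.112, 0.0476 to 0.162 and 0.0120 to 0.0390. The ratio was thus 50.3, 28.7 and 108.0 times as high in choroid plexus cells. The Enpp2 to Ttr ratio was 2.10, 1.83 and 1.36 in choroid plexus cells and 0.259, 0.444 and 0.146 in microglia. The Otx2os1 to Ttr ratio was 0.715, 0.478 and 0.663 in choroid plexus cells and 0.0127, 0.00704 and 0.00174 in microglia. For the other 6 genes the microglial ratios rest on 0 to 7 UMIs a library and were also lower. In Control 2 the exact intervals of Otx2, Kl, Folr1 and Kcnj13 overlapped between both kinds of cell, as for Kcnj13 with 0.0352 (0.0113 to 0.0841) in microglia and 0.0583 (0.0373 to 0.0872) in choroid plexus cells. Among the first 3 genes, Enpp2 had the microglial ratio closest to that of choroid plexus cells in each Control library.

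**Figure D3:**
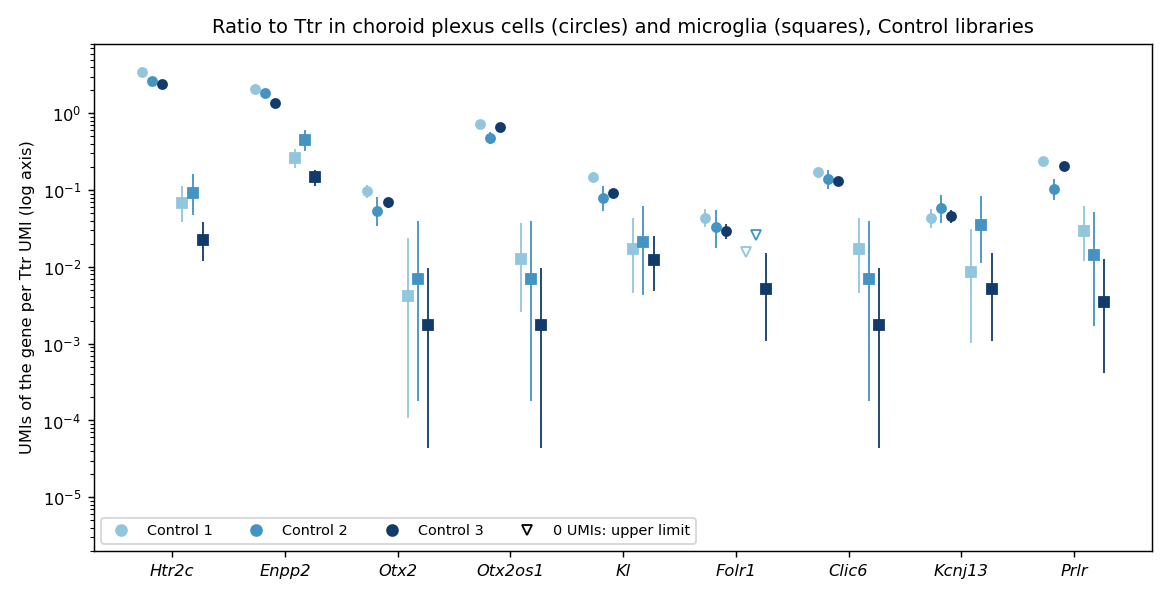
UMIs of each of the other 9 genes per Ttr UMI (log axis) in choroid plexus cells (circles) and microglia (squares) of the 3 Control libraries, with exact 95% intervals for counting error; open triangles are upper limits where 0 UMIs were counted. Htr2c stands at 2.44 to 3.41 per Ttr UMI in choroid plexus cells and at 0.0226 to 0.0916 in microglia.

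Class differences within a library were tested for all 10 genes over the 6 libraries, each of which gives both classes, with an exact two-sided sign-flip permutation test. The 3 class pairs gave 30 tests, whose smallest possible p is 0.03125, and none passed after Benjamini-Hochberg (BH) adjustment over them, although 13 had that smallest p (BH-adjusted p = 0.0721). Htr2c was higher in neurons than in microglia by 0.755 UMIs per cell (SD 0.0772, higher in 6 of 6 libraries). Enpp2 was higher in oligodendrocytes than in microglia by 1.85 (SD 0.30, 6 of 6). Ttr in neurons minus microglia was 0.00939 (SD 0.0182, 4 of 6 higher, exact permutation p = 0.219). Ttr in oligodendrocytes minus microglia was 0.00209 (SD 0.0133, exact permutation p = 0.719), and in neurons minus oligodendrocytes 0.00730 (SD 0.0167, exact permutation p = 0.5). A p above the threshold does not show that the classes carry equal Ttr.

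Htr2c and Enpp2, the genes of the set with the most UMIs per choroid plexus cell, were each high in another class too. Neurons carried 0.695, 0.715 and 0.876 Htr2c UMIs per cell in Sevoflurane libraries, against 0.885, 0.826 and 0.847 in Control libraries. Microglia carried 0.0356, 0.0571 and 0.0455 in Sevoflurane libraries, against 0.0670, 0.0442 and 0.0625 in Control libraries. Neurons were the highest of the 7 classes in all 6 libraries, 16.8-fold to 54.9-fold above the lowest class. Among neuron clusters, Htr2c averaged 4.48 in Sevoflurane and 4.68 in Control in its highest one (cluster 20). Cluster 16 followed with 2.52 in Sevoflurane and 2.95 in Control.

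Enpp2 was highest in oligodendrocytes in all 6 libraries. They carried 1.89, 1.55 and 1.90 Enpp2 UMIs per cell in Sevoflurane libraries, against 2.21, 2.57 and 2.24 in Control libraries. Oligodendrocyte precursors carried 0.833, 0.790 and 0.899 in Sevoflurane libraries, against 1.10, 1.15 and 1.18 in Control libraries. The groups did not overlap in either class, with the Sevoflurane libraries lower. Microglia, the lowest class, carried 0.163, 0.0964 and 0.117 in Sevoflurane libraries, against 0.255, 0.214 and 0.404 in Control libraries. Endothelial cells carried 0.214, 0.233 and 0.254 in Sevoflurane libraries, against 0.415, 0.629 and 0.430 in Control libraries. Ependymal cells, at 0.348, 0.500 and 0.479 in Sevoflurane libraries against 0.658, 0.390 and 0.830 in Control libraries, overlapped between the groups. Neurons carried 0.309, 0.272 and 0.378 in Sevoflurane libraries, against 0.417, 0.432 and 0.612 in Control libraries. Astrocytes carried 0.210, 0.187 and 0.267 in Sevoflurane libraries, against 0.316, 0.262 and 0.460 in Control libraries, where in the means per cell the lowest Control library lay just below the highest Sevoflurane library.

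The ependymal cells carried the transcription factor, its antisense RNA, the folate receptor and the chloride channel gene. Otx2 stood at 0.225, 0.155 and 0.292 UMIs per ependymal cell in Sevoflurane libraries, against 0.0548, 0.159 and 0.532 in Control libraries. Otx2os1 stood at 0.416, 0.203 and 0.490 in Sevoflurane libraries, against 0.137, 0.317 and 0.383 in Control libraries. Folr1 stood at 0.258, 0.122 and 0.146 in Sevoflurane libraries, against 0.288, 0.232 and 0.213 in Control libraries. All 3 overlapped between the groups, and so did Clic6 with 0.157, 0.108 and 0.177 in Sevoflurane libraries against 0.0685, 0.159 and 0.234 in Control libraries. In neurons Otx2 was at 0.00174 to 0.00265 UMIs per cell in Sevoflurane and 0.00120 to 0.00595 in Control. Folr1 in neurons stood at 0.00331, 0.00143 and 0.00151 in Sevoflurane libraries, against 0.00610, 0.00381 and 0.0128 in Control libraries. In oligodendrocytes Folr1 stood at 0.00241, 0 and 0.000924 in Sevoflurane libraries, against 0.00186, 0.00884 and 0.0177 in Control libraries. In both of these classes Control 3 was the highest library for Folr1, as it was for Ttr. The summed choroid plexus markers were also higher in ependymal cells, at 0.561 to 1.53 UMIs per cell in Sevoflurane and 0.808 to 1.28 in Control, than in neurons, at 0.0812 to 0.113 in Sevoflurane and 0.0917 to 0.152 in Control. Microglia summed to 0.0341 to 0.0357 in Sevoflurane and 0.0238 to 0.115 in Control. The part of choroid plexus cells or their RNA in these ependymal levels was not tested.

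Kl, Kcnj13 and Prlr were low in neurons, with little difference between the groups. Neurons carried 0.0968, 0.119 and 0.126 Kl UMIs per cell in Sevoflurane libraries, against 0.10, 0.109 and 0.123 in Control libraries. Kcnj13 stood at 0.050, 0.0561 and 0.0696 in neurons of Sevoflurane libraries, against 0.0651, 0.0649 and 0.0693 in Control libraries. Prlr stood at 0.0958, 0.128 and 0.127 in Sevoflurane libraries, against 0.151, 0.134 and 0.129 in Control libraries. The ranges of Kl and Kcnj13 overlapped between the groups, and those of Prlr did not, with the Sevoflurane libraries lower. Kl was highest among CA1-like clusters, at 0.270 in Sevoflurane and 0.273 in Control in cluster 5. The hippocampus is a known site of neuronal Kl expression. Prlr averaged 0.682 in Sevoflurane and 0.627 in Control in cluster 21, below its levels in cluster 23, which are given further on. In the larger glial classes the 3 genes were lower per cell, and in oligodendrocytes Prlr stood at 0.0145 to 0.0267 in Sevoflurane and 0.0223 to 0.0319 in Control. In microglia Kl stood at 0.0178, 0.0179 and 0.0227 in Sevoflurane libraries, against 0.0167, 0.0102 and 0.0337 in Control libraries. Fibroblasts, the cells of the meninges and vessel sheaths, carried more Kl and Kcnj13 than neurons in most libraries. Kl stood there at 0.0571, 0.313 and 0.244 in Sevoflurane libraries, against 0.139, 0.227 and 0.419 in Control libraries. Kcnj13 stood at 0.143, 0 and 0.163 in Sevoflurane libraries, against 0.208, 0.212 and 0.419 in Control libraries. Scaled to 10000 UMIs of the class, neurons and microglia were closer. Kcnj13 averaged 0.0595 in neurons, 0.0388 in microglia and 0.0535 in oligodendrocyte precursors in Sevoflurane, against 0.0644, 0.065 and 0.088 in Control. Kl averaged 0.116 in neurons and 0.0956 in microglia in Sevoflurane, against 0.108 and 0.102 in Control. Prlr averaged 0.12 in neurons and 0.0233 in microglia in Sevoflurane, against 0.133 and 0.0748 in Control.

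**Figure D4:**
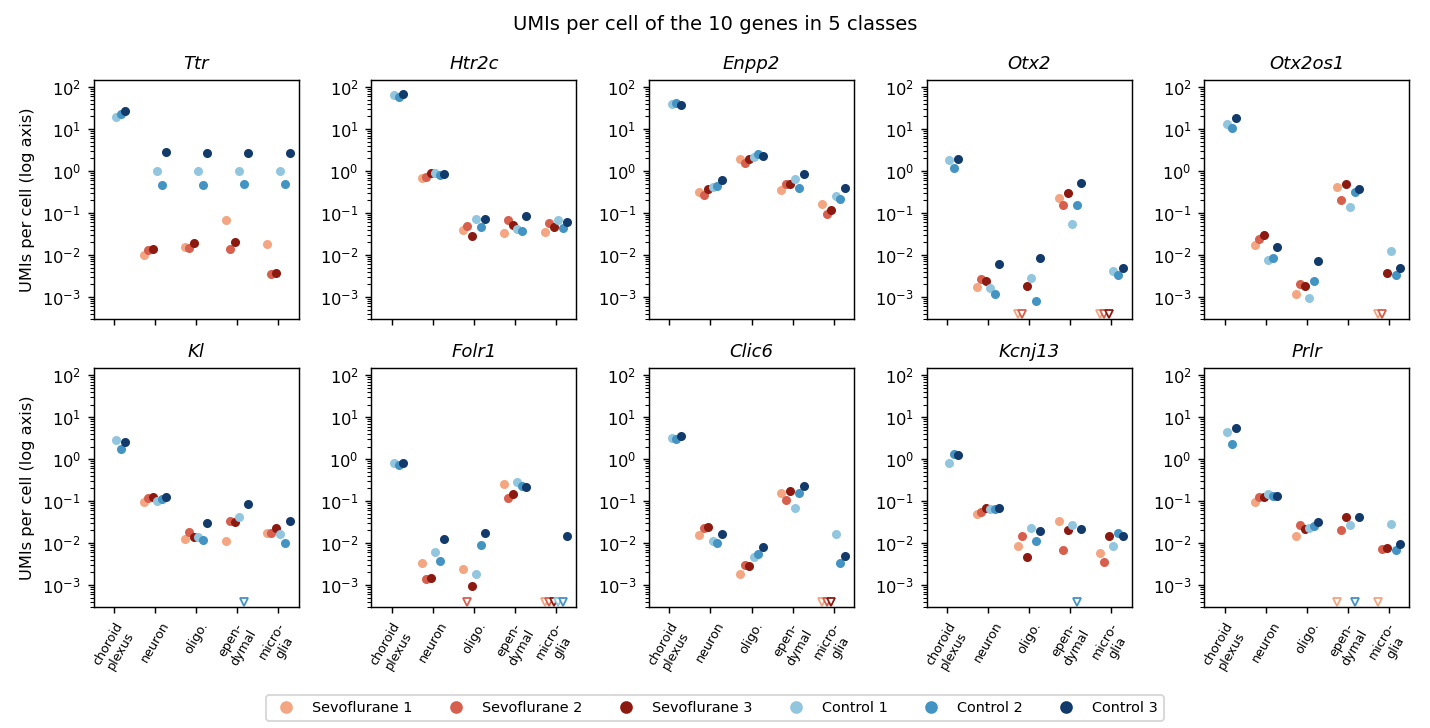
UMIs per cell (log axis) of the 10 genes in choroid plexus cells, neurons, oligodendrocytes, ependymal cells and microglia, 1 point per library, Sevoflurane left of Control, with triangles at the bottom for 0 UMIs and no Sevoflurane points for choroid plexus cells. Ttr in Control libraries is similar from neurons to microglia, Htr2c is highest in neurons after choroid plexus cells, and Enpp2 is highest in oligodendrocytes after choroid plexus cells.

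Over all cells outside the choroid plexus class, the other 9 genes differed much less between the groups than Ttr did. Enpp2 averaged 0.538 ± 0.0890 UMIs per cell in Sevoflurane and 0.772 ± 0.0509 in Control (SD, n = 3 each). Htr2c averaged 0.505 ± 0.0392 in Sevoflurane and 0.558 ± 0.0214 in Control. Folr1 averaged 0.00393 ± 0.00112 in Sevoflurane and 0.00977 ± 0.00456 in Control, the lowest ratio after Ttr at 0.403. Otx2 and Kl stood within their spread at ratios of 0.977 and 0.986 of Sevoflurane over Control. Otx2os1, at 0.0204 ± 0.00428 in Sevoflurane and 0.0111 ± 0.00419 in Control, and Clic6, at 0.0156 ± 0.00274 in Sevoflurane and 0.0120 ± 0.00469 in Control, were the 2 genes with higher means in Sevoflurane.

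Sums of counts per library and class were compared between the groups with the quasi-likelihood test of edgeR, fitted to all genes of a class, with BH adjustment at 0.05. Levels in these fits are CPM, the UMI sum of a gene scaled to the total of its class in that library, and folds are log2 of Sevoflurane over Control. Of the 10 genes, 9 passed the filter on low counts in neurons, 6 in oligodendrocytes, 5 in astrocytes, 3 in microglia, 3 in oligodendrocyte precursors, 2 in endothelial cells and 6 in ependymal cells. Ttr was the single one called, lower, in each of the 7 classes. Over all genes tested, the share called lower was 2.51% in neurons, 0.41% in oligodendrocytes, 1.17% in astrocytes, 0.26% in microglia, 0.831% in oligodendrocyte precursors, 0.964% in endothelial cells and 0.18% in ependymal cells. The Ttr call is part of how the genes were chosen, so nothing is read from these counts. In neurons Ttr stood at 1.08, 1.35 and 1.16 CPM in Sevoflurane libraries, against 96.7, 48.9 and 296.8 CPM in Control libraries, a log2 fold change of -6.95 (SE 0.76). It was -5.94 without Control 3, which moves the fold by over 1.5 times. The log2 fold change was -6.49 in oligodendrocytes, -6.62 in astrocytes, -7.26 in microglia, -6.99 in oligodendrocyte precursors, -6.22 in endothelial cells and -5.21 in ependymal cells. Without Control 3 it lay between -6.23 in microglia and -4.47 in ependymal cells over these 6 classes. It was -7.59 in oligodendrocyte precursors without Sevoflurane 2 and -7.50 in endothelial cells without Sevoflurane 3. In ependymal cells it was -5.97 without Sevoflurane 1, and in microglia it was -8.51 without Sevoflurane 1, which held 6 Ttr UMIs in microglia, against 1 in each of the other Sevoflurane libraries.

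In neurons the groups did not overlap for 6 genes with lower Sevoflurane CPM (Ttr, Htr2c, Enpp2, Folr1, Kcnj13 and Prlr) and for 1 with higher (Otx2os1), beside 2.51% called lower and 1.51% called higher among all genes tested there. Of all genes tested in neurons, 13.7% were lower without overlap and 12.9% higher. Their log2 fold changes after Ttr were -0.21 for Htr2c, -0.67 for Enpp2, -1.85 for Folr1, -0.24 for Kcnj13, -0.28 for Prlr and 1.05 for Otx2os1. Without Sevoflurane 1, Folr1 stood at -2.46, and without Control 3 at -1.18. Enpp2 was lower without overlap in 6 of the 7 classes and called in none, and 7.91% to 13.7% of all genes tested in those 6 classes were lower without overlap. Its log2 fold change was -0.44 in oligodendrocytes, -0.75 in astrocytes, -1.19 in microglia, -0.36 in oligodendrocyte precursors, -0.86 in endothelial cells and -0.30 in ependymal cells. The median over the genes that passed the filter was -0.24 in neurons, beside 0.0217 over all genes tested there.

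**Figure D5:**
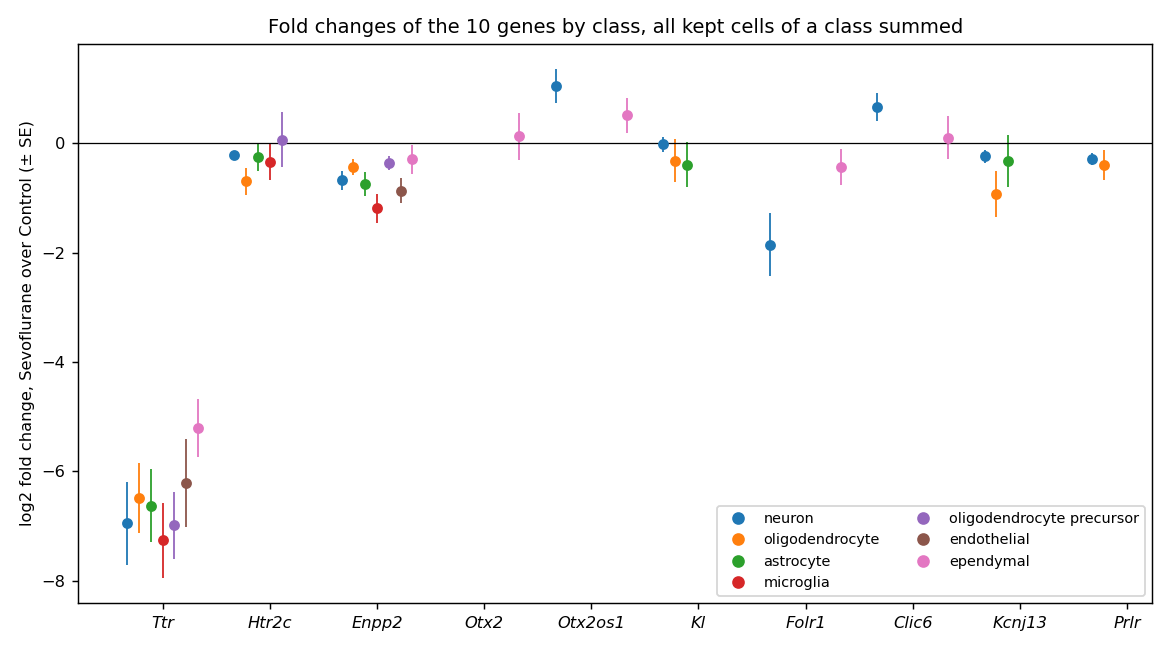
Log2 fold change of Sevoflurane over Control with its SE for each of the 10 genes that passed the filter, by class. Ttr lies between -7.26 and -5.21 in the 7 classes, and the other genes lie far closer to 0.

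Otx2os1, Clic6 and Prlr in neurons moved with a pair of neuron clusters led by the transcription factor gene Zfhx3 that Sevoflurane libraries mostly supplied. Cluster 23 held 504 Sevoflurane and 15 Control cells, and cluster 33 held 120 Sevoflurane and 0 Control cells. In cluster 23, Clic6 averaged 0.457 UMIs per cell in Sevoflurane and 1.02 in Control, far above the mean of all neurons. Prlr averaged 0.918 there in Sevoflurane and 1.8 in Control, also far above that mean. These Control means rest on 9 cells of Control 1 and 5 cells of Control 2 only. In all neurons Otx2os1 stood at 0.0171, 0.0239 and 0.0291 UMIs per cell in Sevoflurane libraries, against 0.00776, 0.00862 and 0.0156 in Control libraries. Clic6 stood at 0.0159, 0.0224 and 0.0237 in Sevoflurane libraries, against 0.0111, 0.00982 and 0.0165 in Control libraries. The groups did not overlap for Otx2os1 and overlapped for Clic6. Without both clusters, a setting chosen after seeing the data, the log2 fold change in neurons was 0.27 for Otx2os1, -1.08 for Clic6, against 0.67 with them, and -0.66 for Prlr. Htr2c stood at -0.40 without them.

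An additional list of 51 choroid plexus genes that holds none of the 10 (11 markers and 40 others) was followed in the same way. Per cell outside the choroid plexus class, 8 of the 11 markers were lower in Sevoflurane without overlap and 0 higher, beside 5.59% lower and 13.2% higher among the 20145 genes with at least 50 UMIs in those cells. The 8 are Aqp1, Sostdc1, Tmem72, Cldn2, Slc4a5, Steap1, Slco1a5 and Ecrg4, all rare there. Tmem72, for instance, stood at 0.000889, 0.00112 and 0.00234 UMIs per cell in Sevoflurane libraries, against 0.00380, 0.00322 and 0.00725 in Control libraries. Of the other 40 list genes, of which 38 had at least 50 UMIs there, 8 were lower and 3 higher without overlap. Within classes few list genes were called. In neurons 41 of them were tested, 0 were called lower and 1 higher, and the median log2 fold change was -0.16. Of these 41, 8 were lower and 2 higher without overlap, beside 13.7% and 12.9% of all genes tested in neurons. In oligodendrocytes 17 were tested with 0 calls and a median of -0.24. In astrocytes 19 were tested, with 2 called lower and a median of -0.02. In microglia 9 were tested, with 1 called lower and a median of -0.26. None of 11 in oligodendrocyte precursors or 21 in ependymal cells was called, with medians of -0.13 and -0.08, and 1 of 13 was called higher in endothelial cells, with a median of 0.07. The shares called lower over all genes tested are those given above, and the shares called higher were 1.51% in neurons, 0.104% in oligodendrocytes, 0.9% in astrocytes, 0.0866% in microglia, 0.0852% in oligodendrocyte precursors, 1.26% in endothelial cells and 0.387% in ependymal cells.

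The 3 list genes called lower were in glia. Igfbp2, a binding protein of insulin-like growth factors, stood at 12.3, 8.78 and 9.47 CPM in astrocytes of Sevoflurane libraries, against 22.4, 22.2 and 24.7 CPM in Control libraries (a log2 fold change of -1.22 with SE 0.22 and an edgeR BH-adjusted p = 0.00908). Msx1, a homeobox transcription factor gene, stood at 10.7, 9.22 and 10.7 CPM in astrocytes of Sevoflurane libraries, against 19.1, 23.0 and 23.6 CPM in Control libraries (-1.11, SE 0.22, edgeR BH-adjusted p = 0.0168). Neither call held without Sevoflurane 2, Control 2 or Control 3 (edgeR BH-adjusted p of 0.0502 to 0.108). Dab2, an endocytic adaptor that macrophages also express, stood at 11.6, 22.5 and 60.2 CPM in microglia of Sevoflurane libraries, against 106.9, 138.9 and 171.3 CPM in Control libraries (-2.12, SE 0.33, edgeR BH-adjusted p = 0.00406). It was not called without Control 3 (edgeR BH-adjusted p = 0.0583), and with doublets kept its log2 fold change was -0.17.

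The 2 list genes called higher depended on the cells or libraries included. Col9a3, a collagen chain gene, stood at 3.19, 4.07 and 3.34 CPM in neurons of Sevoflurane libraries, against 1.15, 1.11 and 1.49 CPM in Control libraries (a log2 fold change of 1.5 with SE 0.18 and an edgeR BH-adjusted p = 0.0117). Without the Zfhx3-led clusters it was -0.10, and without Control 1 or Control 2 it was not called (edgeR BH-adjusted p = 0.0534 and 0.0567). Ezr, which links membranes to actin, stood at 86.9, 57.7 and 45.1 CPM in endothelial cells of Sevoflurane libraries, against 27.0, 17.8 and 18.4 CPM in Control libraries (1.38, SE 0.34, edgeR BH-adjusted p = 0.0436). That call was lost without Sevoflurane 1, Sevoflurane 2 or any 1 Control library (edgeR BH-adjusted p of 0.0803 to 0.142).

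The 6 list genes above 5 UMIs per choroid plexus cell did not show a difference as large as that of Ttr outside the class. Trpm3, a cation channel gene that neurons also express, stood at 97.8 UMIs per choroid plexus cell of Control libraries. In other cells it stood at 6.52, 6.05 and 8.97 UMIs per cell in Sevoflurane libraries, against 7.30, 7.02 and 6.84 in Control libraries, so the groups overlapped. Col8a1, a collagen chain gene and the leading gene of the choroid plexus cluster at 8.41 UMIs per cell, stood at 0.00867, 0.00861 and 0.0254 in other cells of Sevoflurane libraries, against 0.0290, 0.0261 and 0.0487 in Control libraries. These ranges did not overlap, but in neurons Col8a1 was not called. Sulf1, an extracellular sulfatase gene with 9.63 UMIs per choroid plexus cell, stood at 0.0800, 0.0658 and 0.123 in other cells of Sevoflurane libraries, against 0.109, 0.109 and 0.145 in Control libraries. Stk39, a kinase gene with 14.9, the RNA-binding protein gene Rbm47 with 5.54 and Vat1l with 5.13 UMIs per choroid plexus cell also overlapped between the groups in other cells. For Stk39 these levels were 1.04 to 1.46 UMIs per cell in Sevoflurane and 1.28 to 1.38 in Control.

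Among genes with at least 500 UMIs outside choroid plexus cells, no other gene had a pattern close to that of Ttr. Rarer genes were not ranked. Over the 42 points given by 7 classes in 6 libraries, which share libraries and depth, 14996 genes were ranked by Pearson's r of log2 UMIs per 1000 cells, with 1 added, with Ttr. The nearest were Zbtb40 with r = 0.635, Gm8797 with r = 0.539, Atpsckmt with r = 0.509, Gm10069 with r = 0.492 and Zfp960 with r = 0.484. Zbtb40, a zinc finger gene, stood at 0.0658, 0.0655 and 0.0728 UMIs per other cell in Sevoflurane libraries, against 0.133, 0.133 and 0.137 in Control libraries. Of the other 9 genes, 7 were ranked, and Otx2 and Folr1 had too few UMIs. Enpp2 came nearest of the 7 with r = 0.342, and 62 genes lay above it. Ecrg4, one of the choroid plexus markers, had r = 0.439. Clic6 had r = 0.277, Kl r = 0.254 and Htr2c r = 0.123.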

How the data were processed

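The authors deposited UMI counts by gene and barcode, without normalization. Per the file headers, Cell Ranger 6.1.1 made them. The submitters' processing notes also list CASAVA 1.8 and Seurat, without saying what each did. The sources used here do not give the genome build, the annotation or the strand setting. The 10 genes and all gene lists were chosen with earlier results of these data known.

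From these counts, a barcode was kept as a cell with at least 500 UMIs, 300 genes and no more than 20% of UMIs from mitochondrial genes. Doublets were removed by Scrublet score per library in scanpy 1.11.5 (Python 3.11.15), at 0.8% per 1000 cells, which took 5.64% to 7.81% of cells. Counts were scaled to 10000 UMIs, and 2000 variable genes without the 10 genes, 30 principal components, 15 neighbours and Leiden resolution 1 gave 38 clusters. A cluster was named by the mean log2 fold of fixed markers (20 CPM added), which had to reach 1 with a gap of 0.3 to the next type and 3 markers detected in 20% of cells. The limits of the scoring had been set on these cells.

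Counts were summed per library and class, without correction for free RNA. Groups of 3 libraries were compared in edgeR 4.0.16 (R 4.3.3) with the quasi-likelihood test, TMM, filterByExpr and BH adjustment over all genes of a class. The SE is the absolute log2 fold change divided by the square root of F. The procedure was tested on simulated data with 200 changed genes. Alternatives used DESeq2 1.42.0, RLE factors, no filter, a replicate block, kept doublets, a class from each cell's own markers, at least 1000 UMIs per cell, and each library left out. Genes were named by fixed rules: all 10 genes, each list gene called in a class, list genes above 5 UMIs per choroid plexus cell, and the 5 genes most like Ttr among those with at least 500 UMIs. Zbtb40 was given by library after its rank was seen. Intervals are 95% and, like limits set by 3 counts, cover counting error only.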

Additional observations from a re-analysis of the deposited data

How the results depend on the processing

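Of the 10 genes, Ttr was the single one called lower in at least 1 class, a count of 1 that was unchanged with RLE factors. It was 4 with DESeq2 and with no filter, 3 with doublets kept, with a class from each cell's own markers and without the Zfhx3-led clusters (chosen after seeing the data), and 2 at 1000 UMIs per cell. With a replicate block it was 2, though same-numbered libraries did not deviate together (correlations of -0.0971 to 0.027 in 3 classes). Whether the numbers pair the libraries is not known from the labels. Leaving out each library gave 1 to 2. The list of 51 genes had 3 called lower, 6 with DESeq2, 8 with no filter, 6 with a class from each cell's own markers, and 0 to 4 with each library left out (0 without Control 3). It was 3 with RLE factors, the block, kept doublets and 1000 UMIs per cell. Col9a3 in neurons turned to -0.27 with a class from each cell's own markers and to -0.10 without the Zfhx3-led clusters. With a class from each cell's own markers, Otx2os1 in neurons stood at -2.19 and Clic6 at -0.72, and microglia and ependymal cells had too few cells for a fit. The causes were not tested, except that dropping the filter tests more genes. Class differences had 0 calls in every alternative. With 5 libraries no p can go below 0.0625, so 0 calls were fixed in advance with each library left out and nothing is read from them. Depth limits the rare genes: Ttr outside choroid plexus cells rests on 119 to 131 UMIs per Sevoflurane library, and Folr1 in microglia of Control 1 and 2 on 0.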

Other observations

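The unnamed cells carried more Ttr per cell than neurons in each library. They stood at 0.0417, 0.0439 and 0.0145 Ttr UMIs per cell in Sevoflurane libraries, against 1.30, 0.757 and 3.63 in Control libraries. The largest unnamed cluster, led by mitochondrial genes and shallow at 0.228 of the median depth of its libraries, held 1271 Sevoflurane and 632 Control cells. It averaged 0.0426 Ttr and 0.129 Enpp2 UMIs per cell in Sevoflurane, against 2.32 Ttr and 0.503 Enpp2 in Control, while Htr2c stood at 0.0924 in Sevoflurane and 0.108 in Control. Thus its cells carried more Ttr than neurons beside far less RNA in all. Enpp2 also reached 6.39 UMIs per cell in Control in a small oligodendrocyte cluster (cluster 35). That mean rests on 20 cells of Control 1 and 7 of Control 3. The 36 cells of the cluster were deep, at 1.05 of the median depth of their libraries, against 0.36 in the largest oligodendrocyte cluster.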
